A study of Mus musculus with 15 samples.

Results

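The mitochondrially encoded transcripts are the RNAs read from the circular genome that mitochondria carry, and here they are the 37 genes that GENCODE M21 places on chromosome M of the mouse (build GRCm38), out of 55471 gene IDs in the count tables. They were found by their Ensembl identifiers, and all 37 were present: 13 protein-coding genes, 2 rRNA genes and 22 tRNA genes. The study profiled poly(A)-selected RNA of E14 mouse embryonic stem cells (mESCs) in 15 libraries, 3 for each of 5 groups. The first group was embryoid bodies (EBs) grown for 6 days from the NSD1-dTAG knock-in line, given 500 nM dTAG-13 throughout, and the next was EBs of the same line and age left nontreated. The other groups were nontreated NSD1-dTAG mESCs, wild-type mESCs given 500 nM dTAG-13 for 72 h, and nontreated wild-type mESCs. All mESCs were kept on gelatin in 2i/LIF medium, which holds them in a naive state, and the EBs were grown in suspension in serum medium without those inhibitors. NSD1 is a histone H3 lysine 36 methyltransferase, and dTAG-13 is a degrader that recruits a ubiquitin ligase to a protein carrying the dTAG tag, so it acts on NSD1 protein in the knock-in line and has no tagged target in wild-type cells. The labels name the line only as a knock-in and do not say whether it is a single clone. No wild-type EBs and no dTAG-13-treated NSD1-dTAG mESCs were among the groups analysed here.

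Both strands of mitochondrial DNA are transcribed into long precursors by a dedicated RNA polymerase, POLRMT, with TFAM and TFB2M. The tRNAs punctuate these precursors and are cut out, which frees the rRNAs and most mRNAs, and a complex of LRPPRC and SLIRP then stabilises the mRNAs. The proteins made from them are core subunits of respiratory complexes I, III and IV and of ATP synthase, whose other subunits come from nuclear genes. Pieces of mitochondrial DNA have also been copied into the nuclear genome, where they are annotated as pseudogenes. Most mature mitochondrial mRNAs carry short poly(A) tails, while tRNAs are not polyadenylated, so poly(A) selection captures these classes unequally.

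The counted members were few. Of the 37 genes, 16 had 0 counts in every library: 12 tRNAs and the coding genes mt-Co3, mt-Nd3, mt-Nd4l and mt-Atp8. Only 8 genes reached 1000 counts in any library, namely both rRNAs and mt-Nd1, mt-Nd2, mt-Co1, mt-Nd4, mt-Nd5 and mt-Cytb. A further 6 peaked between 10 and 999 counts, among them mt-Nd6 with at most 643 counts, and 23 never reached 10 counts in a library. A count of 0 allows a level of up to 0.103 to 0.160 CPM (counts per 1000000 gene counts), depending on the library, counting error only. It sets no limit for RNA that poly(A) selection missed or for reads that match nuclear copies and may not have been counted.

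The 6 coding genes at or near 0 share a position, and all but mt-Atp8 also have a nearly complete annotated nuclear copy. Chromosome 1 holds annotated pseudogenes that repeat, base for base and in the same order, 7 neighbouring coding genes from the 3′ end of mt-Co1 to the middle of mt-Nd4. The outer ends of these identical runs lie at chrM:6394-11042 (4649 bases) and on the opposite strand at chr1:24611535-24616184 (4650 bases), and the gaps between neighbouring genes had the same length on both molecules except 73 against 74 bases between mt-Nd3 and mt-Nd4l. The run covered 479 of 1545 bases of mt-Co1 (Gm29216), 681 of 684 of mt-Co2 (Gm28661), 678 of 681 of mt-Atp6 (Gm10925), 783 of 784 of mt-Co3 (Gm28437), 342 of 348 of mt-Nd3 (Gm28438), 294 of 297 of mt-Nd4l (Gm10222) and 876 of 1378 of mt-Nd4 (Gm28439). Its extent is shown by 3 of the genes, printed in the sense direction from the GENCODE M21 transcripts. The whole of mt-Nd4l (chrM:9877-10173, plus strand), a small complex I subunit, follows with capitals for the bases identical to Gm10222.
mt-Nd4l: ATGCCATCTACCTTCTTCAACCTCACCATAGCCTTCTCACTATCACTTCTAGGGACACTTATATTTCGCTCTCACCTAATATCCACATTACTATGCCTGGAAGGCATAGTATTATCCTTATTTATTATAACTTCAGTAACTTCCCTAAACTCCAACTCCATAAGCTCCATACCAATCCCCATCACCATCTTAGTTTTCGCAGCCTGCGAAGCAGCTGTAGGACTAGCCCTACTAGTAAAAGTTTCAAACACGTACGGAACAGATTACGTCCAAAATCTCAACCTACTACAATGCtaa
In mt-Nd4, another complex I subunit, bases 817 to 936 (chrM:10983-11102, plus strand) span the end of the identity, with capitals for bases identical to Gm28439.
mt-Nd4: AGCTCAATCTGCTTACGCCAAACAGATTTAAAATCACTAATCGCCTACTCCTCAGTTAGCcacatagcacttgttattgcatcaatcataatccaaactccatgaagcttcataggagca
The 204 bases of mt-Atp8 (chrM:7766-7969, plus strand), an ATP synthase subunit, lie in the 233-base gap between the copies of mt-Co2 and mt-Atp6, where no nuclear transcript is annotated, except for the last 43 bases, which it shares with mt-Atp6 and which are in capitals.
mt-Atp8: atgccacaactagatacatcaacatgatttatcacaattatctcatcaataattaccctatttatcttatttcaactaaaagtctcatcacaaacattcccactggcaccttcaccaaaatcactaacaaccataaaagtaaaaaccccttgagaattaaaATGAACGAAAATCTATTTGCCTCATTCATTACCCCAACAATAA

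Wholly inside this stretch of chromosome M lie 11 genes, 6 coding genes and 5 tRNAs. They drew 8 counts in total over the 15 libraries and never more than 2 in a library, 4 counts for mt-Co2 and 4 for mt-Atp6. Of the 7 pseudogenes, Gm28661 and Gm28439 had 0 counts over all libraries, Gm10925 had 1, Gm28437 had 7, Gm10222 had 19, Gm29216 had 23 and Gm28438 had 356. Gm28437, Gm28438 and Gm10222 thus drew more counts than mt-Co3, mt-Nd3 and mt-Nd4l, which had 0. Coding genes outside or partly outside the stretch drew from 4203 counts for mt-Nd6 to 1604374 for mt-Co1. Of the 17 tRNAs outside it 7 had 0 counts, as had all 5 inside, and tRNAs are not polyadenylated. How reads that match several places were counted is not given in the sources used here, and its part in these zeros was not tested.

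To put the coding and rRNA genes on a common footing, every 50-base window of each was looked up in the annotated nuclear transcripts. All windows of mt-Co2 (100%) were found there, as were 99.5% for mt-Atp6, 99.9% for mt-Co3, 98.0% for mt-Nd3 and 98.8% for mt-Nd4l. The share was 62.2% for mt-Nd4 and 51.1% for mt-Co1, which also has a copy on chromosome 2 (Gm13340), against 8.19% for mt-Nd2, 7.61% for mt-Nd5 and 1.04% for mt-Rnr2. It was 0 for mt-Rnr1, mt-Nd1, mt-Nd6, mt-Cytb and mt-Atp8. The 5 genes with nearly complete copies had 0 or 4 counts each, and mt-Atp8, with no shared window, had 0. The gap that matches mt-Atp8 on chromosome 1 holds no annotated transcript, so the windows could not find a copy there. The levels of mt-Co1 and mt-Nd4 against other genes moved when such windows were left out of the length: per kilobase of gene length mt-Nd4 averaged 583 ± 54.8 CPM in NSD1-dTAG mESCs (SD, n = 3), but per kilobase of windows without a nuclear copy it averaged 1602 ± 150.4, next to 1634 ± 116 for mt-Nd2. For mt-Co1 the level was 7772 ± 1198 by that measure, above the 4026 ± 174 of mt-Nd1 in every library. The measure keeps all counts of the gene and shortens only the length. It therefore assumes that reads from copied windows were not counted, which was not tested.

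**Figure D1:**
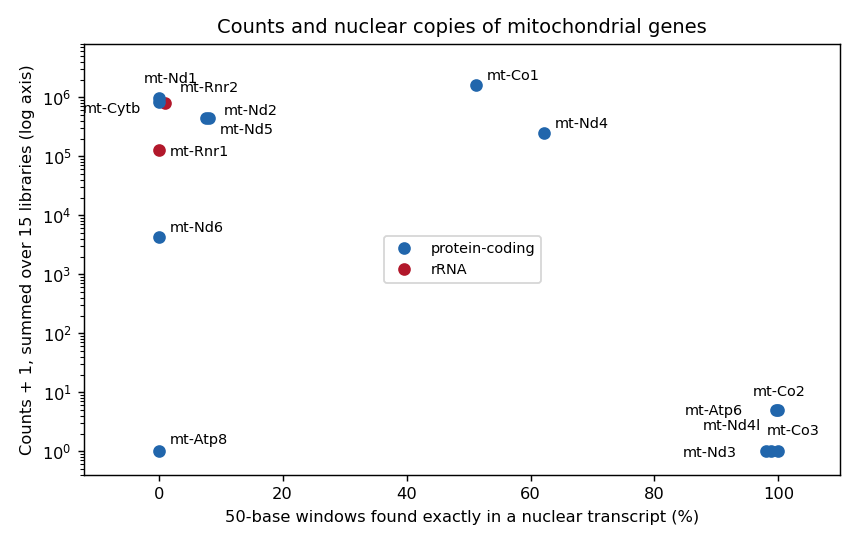
Each point is a protein-coding (blue) or rRNA (red) gene of chromosome M; the x axis gives the percentage of its 50-base windows found exactly in a nuclear transcript and the y axis its counts plus 1 summed over 15 libraries, on a log scale. The 5 genes at 98.0% or more had 0 or 4 counts, and mt-Co1 and mt-Nd4, at 51.1% and 62.2%, had 1604374 and 244370.

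Among the tRNAs, mt-Tw (tryptophan), mt-Tt (threonine) and mt-Ti (isoleucine) were the most counted, with 2327, 1097 and 301 counts over all libraries. They are shown because each directly follows a well-counted coding gene on the same strand, and capitals mark bases annotated to both: the last bases of mt-Nd2 are the first of mt-Tw (chrM:4950-5016), those of mt-Nd1 are the first of mt-Ti (chrM:3706-3774), and mt-Tt (chrM:15289-15355) starts at the base after mt-Cytb.
mt-Tw: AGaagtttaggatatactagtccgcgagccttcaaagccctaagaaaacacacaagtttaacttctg
mt-Ti: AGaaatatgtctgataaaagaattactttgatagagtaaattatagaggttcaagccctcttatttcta
mt-Tt: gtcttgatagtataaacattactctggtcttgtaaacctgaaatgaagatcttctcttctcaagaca
Reads across such borders can count for either gene, so counts on these tRNAs need not be mature tRNA.

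Whole-library facts that bear on these genes are as follows. Libraries held 18704591 to 29103958 gene counts, of which 380552 to 566721 fell on mitochondrial genes in the 9 mESC libraries and 53545 to 296574 in the 6 EB libraries. Nsd1 mRNA, which is not the direct target of a protein degrader and so checks no label, ranged from 229.95 to 329 CPM in dTAG-13 EBs, 209 to 261 in nontreated EBs, 163 to 346 in NSD1-dTAG mESCs, 248 to 393 in dTAG-13 wild-type mESCs and 309 to 396 in nontreated wild-type mESCs. Summed CPM of 8 naive mESC markers was 401 to 511 in dTAG-13 EBs, 671 to 883 in nontreated EBs and 3077 to 3796 across mESC libraries. The 6 epiblast and streak markers summed to 355 to 613 CPM in dTAG-13 EBs, 767 to 1169 in nontreated EBs and 39.5 to 47.1 in mESCs, and the 6 endoderm markers to 241 to 746, 502 to 611 and 2.37 to 7.31 in the same order, and the part of these cell types in the results below was not tested. The 4 blood genes summed to 8.72 to 12.6 CPM in dTAG-13 EBs, 6.88 to 12.97 in nontreated EBs and 4.57 to 6.67 in mESCs, with Hbb-bt and Hba-a1 at 0 in all groups and Ptprc at 0 in mESCs, and the 6 fibroblast or feeder markers summed to 22.04 to 41.4 CPM in EBs and 3.42 to 5.86 in mESCs. ERCC spike-ins, synthetic RNAs named in the protocol, took 0.292% to 0.496% of counts in mESC libraries and 0 in EB libraries, so the EB and mESC libraries differ in more than cell state and the difference cannot be told apart from how the libraries were made. Replicate 3 of both EB groups, replicate 1 of NSD1-dTAG mESCs, replicate 3 of dTAG-13 wild-type mESCs and replicate 1 of nontreated wild-type mESCs stood apart from the other 10: their counts lay on shorter genes (read-weighted exon length 5.06 to 5.51 kb, against 5.79 to 5.98 kb) and more on cytosolic ribosomal protein genes (5.76% to 7.98%, against 4.75% to 5.38%). The mitochondrial results, and the nuclear list results in the comparisons of 2 groups, were also computed without them, the list results as an alternative chosen after seeing the data.

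The summed mitochondrial share separated EBs from mESCs. It was 1.07%, 1.11% and 0.237% of gene counts in the 3 libraries of dTAG-13 EBs, and 0.827%, 0.425% and 0.199% in those of nontreated EBs. It was 1.83%, 2.04% and 2.02% in NSD1-dTAG mESCs, 1.91%, 1.95% and 2.05% in dTAG-13 wild-type mESCs, and 1.81%, 2.05% and 2.03% in nontreated wild-type mESCs. Every EB library lay below every mESC library, and the 3 mESC groups overlapped one another. Within the EB groups the libraries spread widely, 4.67-fold in dTAG-13 EBs and 4.16-fold in nontreated EBs, with replicate 3 the lowest of both; without it the means were 1.09% and 0.626%. In bulk samples, fewer cells of a type and less RNA per cell cannot be told apart, and a share falls when other RNA rises.

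**Figure D2:**
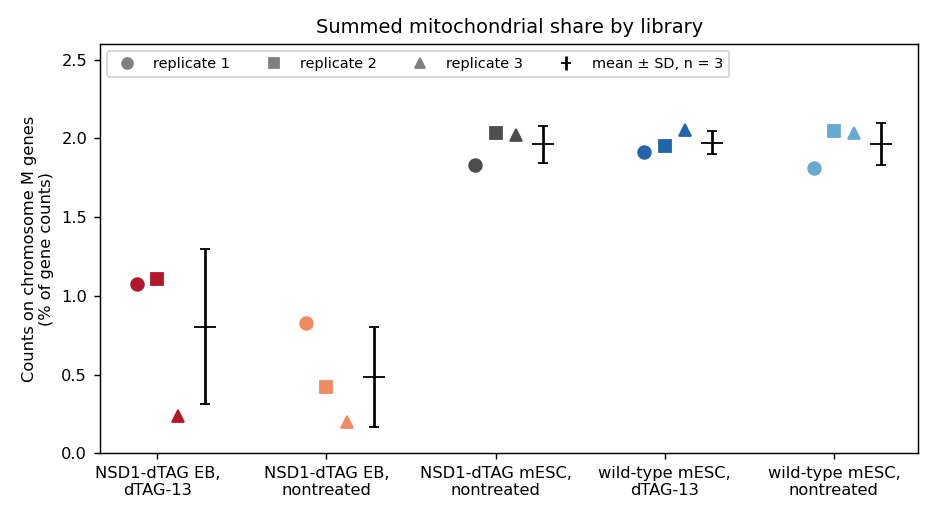
Counts on the 37 chromosome M genes as a percentage of gene counts (y axis) in each library, by group; symbols mark replicates 1 to 3 and bars the mean ± SD (n = 3). All 6 EB libraries lie at or below 1.11% and all 9 mESC libraries at or above 1.81%.

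A sum of 5 other RNAs, most of it Malat1, moved with the share inside the EBs. Malat1 averaged 443 CPM in dTAG-13 EBs and 226 in nontreated EBs, and Meg3, the next highest, 101 and 63.1. Kcnq1ot1 averaged 2.74 and 2.59. The summed share of 5 nuclear-retained RNAs (Malat1, Neat1, Kcnq1ot1, Meg3 and Miat) was 0.0785%, 0.0838% and 0.0219% in dTAG-13 EBs and 0.0522%, 0.0260% and 0.0167% in nontreated EBs. All 6 EB libraries took the same rank order by this share as by the mitochondrial share. In mESCs it was 0.0232% to 0.0326%, and its highest library, replicate 1 of NSD1-dTAG mESCs, had the lowest mitochondrial share of its group. The part of this in the differences below was not tested.

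Levels of the counted genes followed an order set by gene. Per kilobase of gene length, mt-Nd1, a complex I subunit, averaged 3819.8 ± 165 CPM and mt-Co1, the catalytic subunit of complex IV, 3677 ± 567 CPM in NSD1-dTAG mESCs (SD, n = 3 in every group), ranges that overlapped. With windows that have a nuclear copy left out of the length, mt-Co1 came ahead of mt-Nd1, under the untested assumption given above. Below them came mt-Cytb of complex III at 2543 ± 103, the large rRNA mt-Rnr2 at 2004 ± 164 and the complex I subunit mt-Nd2 at 1429 ± 102, each apart from its neighbours in every library. The complex I subunits mt-Nd5 (794 ± 246) and mt-Nd4 (583 ± 54.8) and the small rRNA mt-Rnr1 (469 ± 84.2) followed with overlapping libraries. The place of mt-Nd4 also rests on that assumption. With copied windows left out of the length it averaged 1602 ± 150, above mt-Nd5 at 883 ± 274 and near mt-Nd2 at 1634 ± 116. Far lower per kilobase of gene length were mt-Tw (106 ± 9.94), mt-Tt (58.7 ± 18.5), mt-Nd6 (31.7 ± 9.44), the coding gene of the minus strand, and mt-Ti (15.9 ± 5.30). Both wild-type groups gave the same order. In nontreated EBs mt-Co1 was highest at 1081 ± 767 CPM per kilobase, then mt-Nd1 at 757 ± 494 and mt-Cytb at 701 ± 469, and mt-Rnr2 at 208 ± 135 ranked 6 of the coding and rRNA genes where it ranked 4 in mESCs; neighbours in the EB order overlapped because whole libraries differed.

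**Figure D3:**
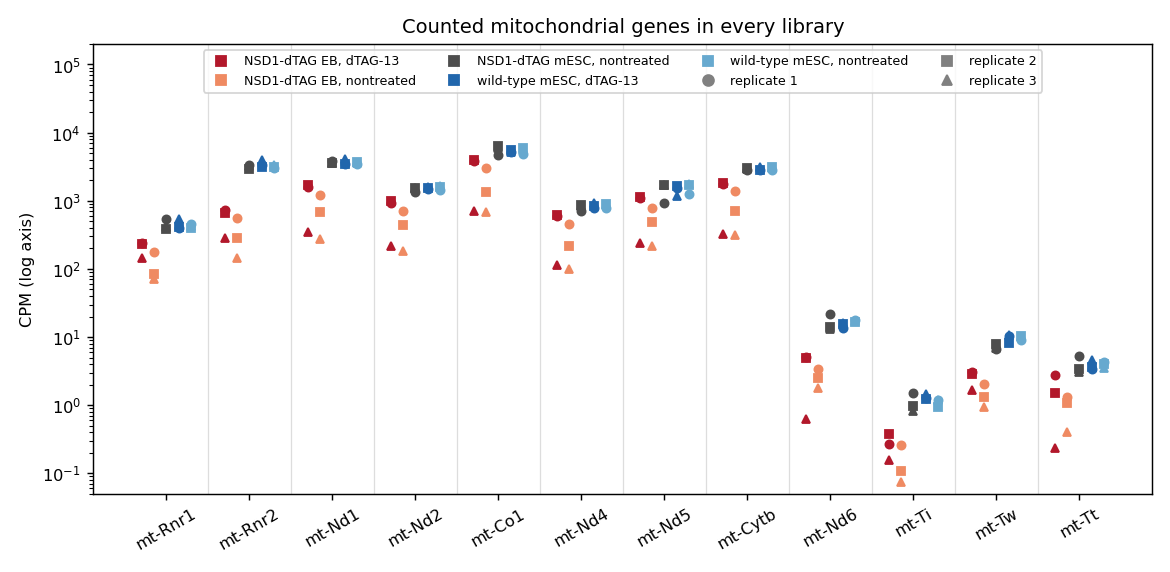
Level of each counted mitochondrial gene in CPM (log y axis) in every library; colours mark the 5 groups and symbols the replicates. Nontreated EB points lie below the NSD1-dTAG mESC points of every gene shown, dTAG-13 EB points overlap mESC points for mt-Nd5 (1092 and 1121 against 931 CPM), and replicate 3 is the lowest of each EB group.

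Nontreated EBs after 6 days of differentiation were compared with nontreated mESCs of the same line. The groups also differ in medium and in spike-in counts, which cannot be told apart from differentiation here. The mitochondrial share averaged 0.484% ± 0.318 in nontreated EBs and 1.96% ± 0.117 in NSD1-dTAG mESCs (SD, n = 3 each), 4.06-fold lower in EBs. It was 6.29-fold lower without EB replicate 1, whose removal left an EB mean of 0.312%. Without EB replicate 2 or 3 it was 3.83-fold or 3.14-fold lower. Each counted coding gene and both rRNAs fell, and mt-Rnr2 fell most among the well-counted genes. Of 13 members tested by edgeR, 0 were called higher and 13 lower at an adjusted p below 0.05, where 59.5% of all 15193 genes tested were called, 26.3% lower and 33.1% higher. Of these, mt-Ti and mt-Tp passed the filter on low counts through the mESC libraries alone; the 11 that also passed within the EB libraries were all lower, with log2 fold changes from -3.41 to -1.69 and a median of -2.17, beside a median of 0.02 over all genes tested. The calls held without mESC replicate 1 and EB replicate 3, the libraries of this comparison that stood apart, where the median of all 13 was -1.77.

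The rRNAs, the scaffold of the mitochondrial ribosome, fell unequally. The large rRNA mt-Rnr2 had 563, 281 and 144 CPM in the 3 nontreated EB libraries, against 3384, 2882 and 3247 CPM in NSD1-dTAG mESCs. Its log2 fold change was -3.41 ± 0.45 (SE; edgeR adjusted p = 2.94e-04). The small rRNA mt-Rnr1 had 174, 84.9 and 71.7 CPM in EBs, against 539.8, 389 and 416 CPM in mESCs (log2 fold change -2.17 ± 0.34, edgeR adjusted p = 7.17e-04). No library overlapped between the groups for either gene. Their ratio of counts, mt-Rnr1 over mt-Rnr2, was 0.310, 0.302 and 0.498 in nontreated EBs and 0.331, 0.359 and 0.509 in dTAG-13 EBs, against 0.160, 0.135 and 0.128 in NSD1-dTAG mESCs. All 6 EB libraries were above all 9 mESC libraries, which ranged from 0.118 to 0.160. Both rRNAs carry only very short 3′ tails, and how much of each survived poly(A) selection cannot be read from the counts.

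Complex I genes made up most of the coding genes counted. In mt-Nd1 the levels were 1217, 683 and 274 CPM in nontreated EBs, against 3838, 3570.1 and 3559 CPM in NSD1-dTAG mESCs (log2 fold change -2.48 ± 0.46, edgeR adjusted p = 0.00189). For mt-Nd2 they were 717, 436 and 186 CPM against 1362, 1555 and 1533 (-1.87 ± 0.41, edgeR adjusted p = 0.00450). The groups were apart for both genes, with EB replicate 3 far below the other EB libraries. For mt-Nd4 they were 451, 216 and 100.5 CPM in EBs against 719, 863 and 830.4 in mESCs (-1.79 ± 0.46, edgeR adjusted p = 0.00963). For mt-Nd5 they were 780.3, 480.4 and 216 CPM against 931, 1732 and 1683 (-1.69 ± 0.43, edgeR adjusted p = 0.00970). Here the gap between the groups was narrow, because mESC replicate 1, which stood apart, held only 931 CPM of mt-Nd5. mt-Nd6, read from the other strand, had 3.35, 2.53 and 1.78 CPM in EBs against 22.1, 14.1 and 13.2 in mESCs (-2.84 ± 0.30, edgeR adjusted p = 8.49e-05). It overlaps mt-Nd5 by 14 bases on the opposite strand, and whether the counts used strand is not given in the sources used here.

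Coding genes of complexes III and IV also fell. mt-Co1 had 2981, 1352 and 676 CPM in nontreated EBs, against 4686, 6336 and 6021 CPM in NSD1-dTAG mESCs (log2 fold change -1.90 ± 0.47, edgeR adjusted p = 0.00790). mt-Cytb, an electron-carrying subunit of complex III, had 1379, 709.5 and 318 CPM against 2787, 3022 and 2919 (-2.0 ± 0.45, edgeR adjusted p = 0.00501). In both genes every EB library was below every mESC library. mt-Co2 and mt-Co3 of complex IV, mt-Atp6 and mt-Atp8 of ATP synthase, and mt-Nd3 and mt-Nd4l were at or near 0 in both groups and allow no statement.

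Among the tRNAs, mt-Tw had 2.05, 1.32 and 0.929 CPM in nontreated EBs against 6.597, 7.84 and 6.80 in NSD1-dTAG mESCs (log2 fold change -2.44 ± 0.27, edgeR adjusted p = 1.15e-04). mt-Tt had 1.305, 1.07 and 0.409 CPM against 5.36, 3.34 and 3.09 (-2.23 ± 0.41, edgeR adjusted p = 0.00179). The coding genes they follow, mt-Nd2 and mt-Cytb, had -1.87 and -2.0. mt-Ti rested on 7, 3 and 2 counts in EBs against 44, 27 and 20 in mESCs (-3.02 ± 0.48, edgeR adjusted p = 8.12e-04), and mt-Tp, the proline tRNA of the minus strand, on 1, 8 and 4 against 16, 14 and 14 (-1.88 ± 0.50, edgeR adjusted p = 0.0111). The mt-Tp call was lost when a gene-length trend was removed (adjusted p = 0.151). Of the other 18 tRNAs, 12 had 0 counts and none exceeded 13 counts in any library.

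**Figure D4:**
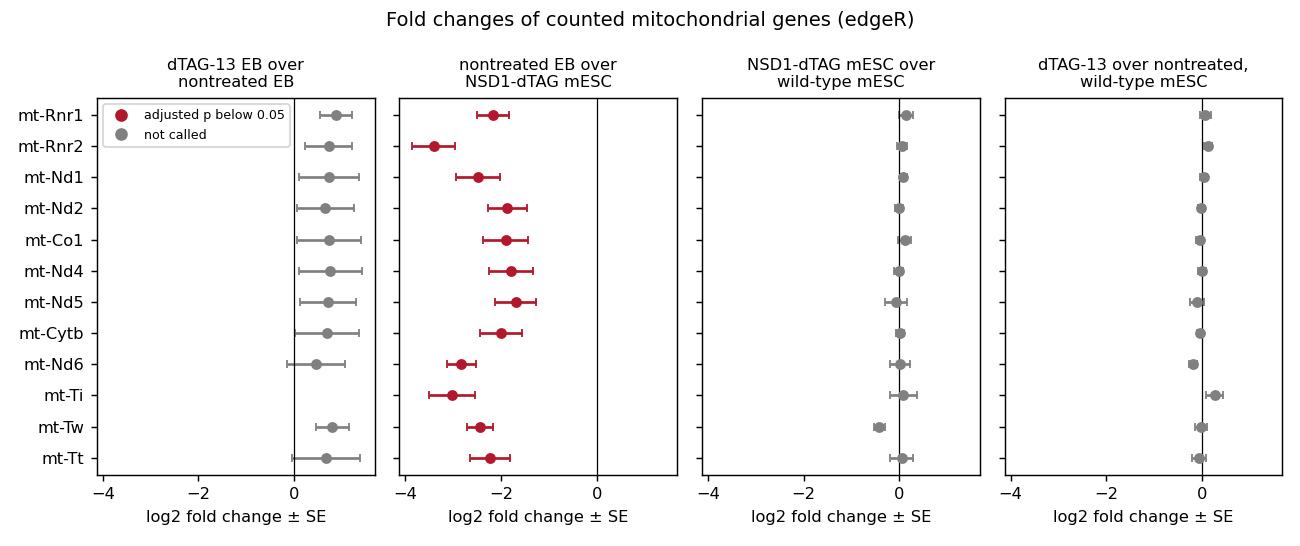
Log2 fold change ± SE (x axis, edgeR) of 12 counted mitochondrial genes in 4 comparisons, each named above its panel; red points passed an adjusted p of 0.05. All genes are red and left of 0 in nontreated EBs over NSD1-dTAG mESCs, grey and right of 0 in dTAG-13 EBs over nontreated EBs, and between -0.41 and 0.27 among mESC groups; mt-Ti was not tested in the EB comparison.

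Within the mitochondrial counts themselves, the make-up differed between EBs and mESCs. The rRNAs were 8.92%, 8.61% and 10.8% of mitochondrial counts in nontreated EBs and 21.5%, 16.1% and 18.1% in NSD1-dTAG mESCs, with no overlap. mt-Rnr2 was 6.81%, 6.61% and 7.24% against 18.5%, 14.1% and 16.0%, while mt-Rnr1 was 2.11%, 2.00% and 3.60% against 2.95%, 1.91% and 2.06%, which overlapped. mt-Co1 made up 36.0%, 31.8% and 34.0% of mitochondrial counts in EBs and 25.6%, 31.1% and 29.8% in mESCs, and mt-Nd5 9.43%, 11.3% and 10.9% against 5.09%, 8.50% and 8.32%. Shares of a whole depend on each other, so these are descriptions with no test.

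**Figure D5:**
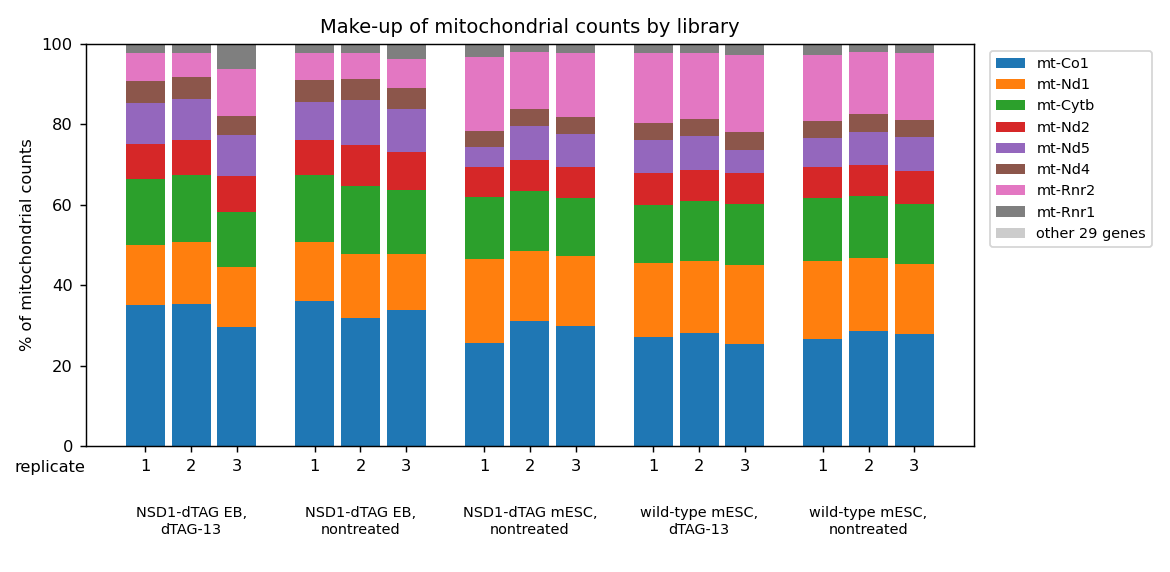
Percentage of mitochondrial counts (y axis) taken by each of the 8 most counted genes and by the other 29 together, in each library. The mt-Rnr2 segment is 5.89% to 11.8% in dTAG-13 EBs, 6.61% to 7.24% in nontreated EBs and 14.1% to 18.5% in NSD1-dTAG mESCs.

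Nuclear genes that make, process and use these RNAs were read from the same edgeR fit. Polrmt fell in nontreated EBs against NSD1-dTAG mESCs (log2 fold change -0.56 ± 0.11, adjusted p = 0.00315), as did Tfb2m (-0.54 ± 0.15, adjusted p = 0.0151), and Tfam missed the threshold (-0.40 ± 0.15, adjusted p = 0.0502), which it passed without the libraries that stood apart (-0.27 ± 0.05, adjusted p = 0.0019). Counts of list members called are to be read against the 33.1% of all genes called higher and 26.3% lower. Of 24 genes of mitochondrial DNA transcription and replication, 4 rose and 8 fell, including Dna2, a nuclease-helicase (-1.13 ± 0.12), while Polg, the DNA polymerase (0.87 ± 0.13), and Top1mt, a topoisomerase (0.78 ± 0.15), rose. For RNA processing, stability and decay 0 rose and 18 of 24 fell, among them Lrpprc (-0.68 ± 0.10, adjusted p = 4.13e-04), Slirp (-0.90 ± 0.22, adjusted p = 0.00742), the ribonuclease Lactb2 (-0.97 ± 0.09) and Ptcd1 (-0.80 ± 0.11). RNA modification enzymes counted 0 higher and 9 of 19 lower, led by the rRNA methyltransferase Nsun4 (-1.30 ± 0.11) and the pseudouridine synthase Pus1 (-0.92 ± 0.12). Mitochondrial ribosomal proteins counted 1 higher (Mrpl23, 1.11 ± 0.16) and 38 lower of 77, with Mrps12 (-1.26 ± 0.20) and Mrpl4 (-0.85 ± 0.14) first. Without the libraries that stood apart, where 38.4% of all genes were called higher and 34.8% lower, these 4 lists counted 5 higher and 11 lower, 0 and 22, 0 and 13, and 2 and 54.

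Partner subunits from the nucleus were called lower in part of each complex, where 26.3% of all genes were: 21 of 35 in complex I, 8 of 9 in complex III, 11 of 12 in complex IV and 13 of 17 in ATP synthase, with medians on the log2 scale of -0.65, -0.96, -0.93 and -0.77. Without the libraries that stood apart, where 34.8% of all genes were called lower, they were 32, 9, 11 and 15, with medians of -0.48, -0.80, -0.69 and -0.60. Named by smallest p, these included Ndufb10 (-1.19 ± 0.25), Ndufb5 (-0.98 ± 0.21), Uqcrc1 (-0.98 ± 0.13), Uqcr10 (-1.26 ± 0.26), Cox8a (-0.99 ± 0.16), Cox6c (-1.05 ± 0.21) and Atp5g1 (-1.51 ± 0.20), while Atp5g2, another gene for the ATP synthase c subunit, rose (0.62 ± 0.11). The mitochondrial genes' median of -2.17 lay below each of these medians, also without those libraries (-1.77 over all 13 tested), and the difference between the lists was not tested. Of 13 biogenesis regulators, 2 rose, Creb1 (1.27 ± 0.15) and Gabpb1 (0.30 ± 0.11), and 4 fell, first Esrrb (-2.19 ± 0.19), an orphan receptor that is also a naive pluripotency factor, and Gabpa (-0.79 ± 0.12). Stress and proteostasis genes counted 1 higher, the protease gene Spg7 (0.33 ± 0.11), and 10 lower of 14, with Gdf15, a secreted stress factor (-1.92 ± 0.28), and the protease gene Lonp1 (-0.58 ± 0.10). Of 5 nuclear-retained RNAs, Miat (2.69 ± 0.33) and Neat1 (0.83 ± 0.24) rose and Kcnq1ot1 (-1.67 ± 0.32) fell. Of 4 annotated nuclear copies tested, 2 were called lower, Gm13340 (-1.73 ± 0.34), a copy of mt-Co1, and Gm28438 (-2.88 ± 0.36), the copy of mt-Nd3, which passed the filter through the mESC libraries alone at 0.208 ± 0.0558 CPM in nontreated EBs and 1.41 ± 0.376 CPM in NSD1-dTAG mESCs (SD, n = 3 each); reads from a gene and its identical copy cannot be told apart.

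The degrader comparison set dTAG-13 EBs against nontreated EBs. NSD1 protein was not measured here. Without wild-type EBs given dTAG-13, loss of NSD1 cannot be told apart from an effect of the compound itself. The mean mitochondrial share was higher with dTAG-13, 0.806% ± 0.493 against 0.484% ± 0.318 in nontreated EBs (SD, n = 3 each). This was a 1.67-fold difference, but the libraries overlapped. The difference was 2.58-, 1.57- or 1.29-fold without nontreated EB replicate 1, 2 or 3. Without dTAG-13 EB replicate 1, 2 or 3 it was 1.39-, 1.36- or 2.25-fold. edgeR called 0 of 11 members tested (2 at an unadjusted p below 0.05), and DESeq2 also 0 (1 unadjusted), where 6.76% of all 15236 genes tested were called, 3.98% higher and 2.78% lower. All 11 fold changes were above 0, from 0.45 to 0.88 on the log2 scale with a median of 0.72, beside -0.01 over all genes tested. Their SEs reached 0.71, so a difference of this size was not told from 0 at the spread of these libraries. These fits used no pairing, although the EB libraries were taken as paired by replicate number from their correlation alone. With replicate as a block edgeR called 2 members higher, mt-Rnr1 (0.95 ± 0.18, adjusted p = 0.0266) and mt-Rnr2 (0.83 ± 0.16, adjusted p = 0.0271), 2 of 11 where 12% of all genes were called, 6.87% higher and 5.17% lower. Without replicate 3 of both groups it called 4 others, mt-Nd1 (0.77), mt-Nd2 (0.72), mt-Nd5 (0.79) and mt-Nd6 (0.76), of 11, and neither rRNA, where 20.9% of all genes were called, 10.7% higher and 10.2% lower. No member was called in both of these fits. The members' median moved to 1.32 without nontreated EB replicate 1, to 1.15 without dTAG-13 EB replicate 3 (10 of 11 at an unadjusted p below 0.05), to 0.45 and 0.42 without dTAG-13 EB replicate 1 or 2, and to 0.35 without nontreated EB replicate 3.

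By gene, mt-Rnr1 had 240.0, 234 and 142 CPM in the dTAG-13 EB libraries, against 174, 84.9 and 71.7 CPM in nontreated EBs (log2 fold change 0.88 ± 0.34, edgeR adjusted p = 0.175). For mt-Rnr2 the values were 725, 652 and 280.03 CPM against 563, 281 and 144 (0.73 ± 0.49, edgeR adjusted p = 0.458). In each same-numbered pair the dTAG-13 library was the higher for both rRNAs, although the groups overlapped. The rRNA part of mitochondrial counts was 8.98%, 8.003% and 17.8% in dTAG-13 EBs and 8.92%, 8.61% and 10.8% in nontreated EBs, and replicate 3 with dTAG-13 lay within the mESC range of 16.1% to 21.6%.

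mt-Co1 had 3779, 3925 and 702 CPM in dTAG-13 EBs, against 2981, 1352 and 676 CPM in nontreated EBs (0.73 ± 0.67, edgeR adjusted p = 0.604). For mt-Cytb the values were 1765, 1843 and 323 CPM against 1379, 709.5 and 318 (0.69 ± 0.66, edgeR adjusted p = 0.622). These genes differed most in replicate 2 and hardly in replicate 3. Among complex I genes mt-Nd1 had 1602, 1682 and 354 CPM against 1217, 683 and 274 (0.72 ± 0.63, edgeR adjusted p = 0.578), and mt-Nd5 1092, 1121 and 238 against 780.3, 480.4 and 216 (0.71 ± 0.59, edgeR adjusted p = 0.559). mt-Nd2 (0.65 ± 0.59), mt-Nd4 (0.76 ± 0.66) and mt-Nd6 (0.45 ± 0.61) had like values. In replicate 3 mt-Nd6 was lower with dTAG-13, at 0.618 CPM against 1.78, where replicates 1 and 2 had 5.04 and 5.001 against 3.35 and 2.53. Of the tRNAs tested, mt-Tw had 3.05, 2.87 and 1.66 CPM in dTAG-13 EBs and 2.05, 1.32 and 0.929 in nontreated EBs (0.80 ± 0.34, edgeR adjusted p = 0.224), and mt-Tt 2.74, 1.53 and 0.232 against 1.305, 1.07 and 0.409 (0.67 ± 0.71), also lower in replicate 3. mt-Ti had too few counts to be tested, at 7, 10 and 4 against 7, 3 and 2.

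Few nuclear partners were called between the EB groups, where 3.98% of all genes were called higher and 2.78% lower. No gene of mitochondrial DNA transcription and replication was called by edgeR (0 of 24), with Polrmt at -0.18 ± 0.09, Tfam at -0.09 ± 0.08 and Tfb2m at -0.26 ± 0.16 on the log2 scale, and none of the RNA modification, mitochondrial ribosomal protein or respiratory complex lists was. In RNA processing 1 of 24 fell, Grsf1, which binds RNA in mitochondrial granules, at 177 ± 4.24 CPM in dTAG-13 EBs and 247 ± 24.8 CPM in nontreated EBs (SD, n = 3; log2 fold change -0.50 ± 0.09, edgeR adjusted p = 0.0191), while Lrpprc (0.21 ± 0.09) and Slirp (-0.03 ± 0.13) were not called. Of 15 stress genes 2 rose, Atf5, a factor of the mitochondrial unfolded protein response (0.76 ± 0.12, adjusted p = 0.0154), and Gdf15 (1.5 ± 0.28, adjusted p = 0.0214), and of 13 biogenesis regulators Esrrb fell (-0.83 ± 0.18, adjusted p = 0.0346), all by edgeR. Neat1, a nuclear RNA, rose (1.53 ± 0.30, edgeR adjusted p = 0.0252), 1 of 5 nuclear-retained RNAs. Without replicate 3 of both groups, where 20.9% of all genes were called, Lrpprc (0.29 ± 0.06) and Polg (0.34 ± 0.07) were also called higher and Myc (-0.47 ± 0.07) lower, with Miat (1.29 ± 0.19) higher among the nuclear-retained RNAs, of which 3 of 5 were. Complex I then counted 1 higher and 2 lower, complex IV 0 and 1 and the mitochondrial ribosomal proteins 1 and 2.

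The knock-in line was set against wild-type mESCs to see how it differed before any degrader. The tag and other differences of the line cannot be told apart. Mitochondrial shares averaged 1.96% ± 0.117 in NSD1-dTAG mESCs and 1.96% ± 0.132 in nontreated wild-type mESCs (SD, n = 3 each). edgeR called 0 of 14 members tested (1 at an unadjusted p below 0.05), and DESeq2 0 (1 unadjusted), where 1.86% of all 13895 genes tested were called, 0.547% higher and 1.32% lower (76 and 183 genes, and 47 and 211 with plain library sizes). Fold changes ranged from -0.41 to 0.14 on the log2 scale, with a median of 0.03 beside 0.01 over all genes tested.

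The lowest was mt-Tw, with 6.597, 7.84 and 6.80 CPM in NSD1-dTAG mESCs against 9.19, 10.4 and 9.89 in nontreated wild-type mESCs (-0.41 ± 0.11, edgeR adjusted p = 0.124), groups that did not overlap. Its neighbour mt-Nd2, whose last bases it shares, was at -0.01 ± 0.09. With replicate 1 of both groups removed, edgeR called mt-Tw lower (-0.44), mt-Nd6 lower (-0.27) and mt-Co1 higher (0.13), 3 of 13 tested, where 22.7% of all genes tested in that fit were called; mt-Nd6 was at 0.01 ± 0.21 with all libraries. The other counted genes were mt-Rnr1 (0.14 ± 0.15), mt-Rnr2 (0.06 ± 0.10), mt-Nd1 (0.09 ± 0.08), mt-Co1 (0.11 ± 0.13), mt-Nd4 (-0.01 ± 0.09), mt-Nd5 (-0.07 ± 0.24), mt-Cytb (0.01 ± 0.08), mt-Tt (0.05 ± 0.24), mt-Ti (0.09 ± 0.28), mt-Tp (0.05 ± 0.27) and mt-Tm (-0.33 ± 0.32), all uncalled. Among the 8 most counted genes mt-Nd5 varied most, at 931, 1732 and 1683 CPM in NSD1-dTAG mESCs against 1278, 1718 and 1735 in wild-type mESCs, low in the replicate 1 that stood apart in each group. Of the nuclear lists 1 gene was called by edgeR with all libraries, the biogenesis regulator Myc, higher in the knock-in line (0.55 ± 0.09, adjusted p = 0.0391); Polrmt (0.00 ± 0.09), Tfam (0.03 ± 0.14), Tfb2m (-0.11 ± 0.13), Lrpprc (-0.02 ± 0.07) and Slirp (0.23 ± 0.21) were not. Without replicate 1 of both groups Tfam was called lower (-0.10 ± 0.04), 1 of 2 lower calls among the 24 transcription and replication genes, and 1 of 24 processing genes was called higher and 5 lower, where 11.5% of all genes were higher and 11.2% lower.

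Wild-type mESCs given dTAG-13 test the compound where no protein carries the tag. The share averaged 1.97% ± 0.0736 in dTAG-13 wild-type mESCs and 1.96% ± 0.132 in nontreated wild-type mESCs (SD, n = 3 each). edgeR called 0 of 13 members (1 at an unadjusted p below 0.05, mt-Nd6) and DESeq2 0 (0 unadjusted), where 0% of all 13784 genes tested were called. The fold changes lay between -0.19 and 0.28 on the log2 scale, with a median of -0.01, as over all genes tested (-0.01).

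Neither rRNA was called, mt-Rnr2 at 3350.1, 3181 and 3902 CPM with dTAG-13 against 2987, 3133 and 3403 CPM without (0.13 ± 0.08) and mt-Rnr1 at 0.07 ± 0.11. Coding genes gave 0.03 ± 0.07 for mt-Nd1, -0.01 ± 0.06 for mt-Nd2, -0.05 ± 0.08 for mt-Co1, 0.00 ± 0.08 for mt-Nd4, -0.11 ± 0.15 for mt-Nd5, -0.05 ± 0.06 for mt-Cytb and -0.19 ± 0.08 for mt-Nd6. For mt-Nd6 the levels were 13.6, 15.3 and 16.3 CPM with dTAG-13 against 17.6, 16.8 and 16.9 without, groups that did not overlap, at an edgeR adjusted p of 1.00. The tRNAs gave -0.02 ± 0.12 for mt-Tw, -0.05 ± 0.15 for mt-Tt, 0.27 ± 0.18 for mt-Ti and 0.28 ± 0.28 for mt-Tp. With both libraries that stood apart removed, edgeR called mt-Cytb lower (-0.12, adjusted p = 0.00551), 1 of 13 where 0.115% of all genes were called. No gene of the nuclear lists was called, and Polrmt (0.00 ± 0.06), Tfam (-0.01 ± 0.07), Tfb2m (-0.12 ± 0.11), Lrpprc (-0.03 ± 0.06) and Slirp (0.01 ± 0.09) were near 0.

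Whether dTAG-13 acted differently in NSD1-dTAG EBs and in wild-type mESCs was tested as the difference of its 2 effects, where the cell line and cell state also differ. edgeR called 0 of 13 members (1 at an unadjusted p below 0.05, mt-Tw) and DESeq2 0 (1 unadjusted), where 2.88% of all 15855 genes tested were called, 1.6% higher and 1.27% lower. The differences, EB effect minus mESC effect, had a median of 0.70 on the log2 scale, with mt-Tw at 0.81 ± 0.35 (edgeR adjusted p = 0.296), mt-Rnr1 at 0.80 ± 0.39 (edgeR adjusted p = 0.366) and mt-Rnr2 at 0.59 ± 0.55. Coding genes lay between 0.64 ± 0.60 for mt-Nd6 and 0.81 ± 0.67 for mt-Nd5. Only mt-Tp was below 0, at -0.60 ± 0.72. Without the filter on low counts edgeR called 8 of 21 members higher, both rRNAs and 6 coding genes, where 1.46% of all 30609 genes were called higher and 1.53% lower. Among the nuclear genes, Grsf1 (-0.54 ± 0.10, adjusted p = 0.0136), Myc (-0.70 ± 0.15, adjusted p = 0.0257) and Neat1 (1.52 ± 0.35, adjusted p = 0.0348) differed between the effects, by edgeR.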

How the data were processed

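Gene counts of 15 poly(A)-selected, strand-specific RNA-seq libraries were used as deposited; they are raw whole-number counts per gene that the authors made, with STAR and DESeq2 1.30.0 among the tools and GRCm38.p6 as the build per the submitters' processing notes. Which read counter was run, with which strand setting and which rule for multiply mapped reads, is not given in the sources used here. Of 55471 gene IDs, 55230 matched GENCODE M21, and ERCC rows were kept out of library sizes.

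The members are all genes of chromosome M. Members and gene lists were chosen with earlier results of these data known. CPM is counts per 1000000 gene counts. Each comparison was fitted to its own groups with edgeR 4.0.16 (quasi-likelihood, TMM, filterByExpr), Benjamini-Hochberg over all genes tested, called at an adjusted p below 0.05; the difference of dTAG-13 effects used 4 groups. DESeq2 1.42.0, other scalings, filters, a replicate block, a gene-length offset and left-out libraries were alternatives, and the fitting script was tested on simulated data. The labels call replicates biological without naming cultures, so a p-value here covers only how far these libraries scatter, which may be technical.

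Same-numbered libraries deviated together in the EB groups (r = 0.220 to 0.366) and between the 2 nontreated mESC lines (r = 0.285 to 0.583), each in 3 of 3 pairs, and were taken as paired there by this correlation alone. The main fits did not use this pairing, which entered only through the replicate block. Pairs of unlike number reached r = 0.173 in the EB groups and 0.250 between these lines. In wild-type mESCs dTAG-13 replicate 3 and nontreated replicate 1, which both stood apart, had r = 0.469. Named genes were all coding and rRNA members, called tRNAs and the 3 most counted, Polrmt, Tfam, Tfb2m, Lrpprc, Slirp, and up to 2 called genes per direction of each other list. Nuclear copies were found as exact 50-base windows of GENCODE M21 transcripts.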

Additional observations from a re-analysis of the deposited data

How the results depend on the processing

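The 13 lower calls in EBs against NSD1-dTAG mESCs ranged from 12 to 14 over all alternatives run, and no member changed sign; mt-Tp was the gene lost, with the gene-length offset, alone (-0.996 on the log2 scale) and with a replicate block (-1.06). In the EB degrader comparison the 0 calls became 1 higher without the filter, 2 with the replicate block, 3 with block and length offset (chosen after seeing the data), and 4 without the libraries that stood apart; leaving out each library in turn gave 0 to 1, the 1 being mt-Rnr1 (1.37) without nontreated EB replicate 1. For the knock-in line it became 3 without the libraries that stood apart, where mt-Nd6 turned to -0.27, and 1 (mt-Tw) with block and length offset; for dTAG-13 in wild-type mESCs 1 without those libraries. The difference of dTAG-13 effects went to 8 without the filter. The replicate block changed no other call. In the other comparisons same-numbered libraries did not deviate together (r = -0.289 to 0.233 for dTAG-13 in wild-type mESCs, -0.267 to 0.126 for EBs against mESCs). The cause was not tested in any of these. Signs of uncalled fold changes flipped under some alternative in 9 of 13 genes for dTAG-13 in wild-type mESCs, 11 of 14 for the knock-in line and 1 of 11 in the EB degrader comparison. Over all genes, calls went from 76 higher and 183 lower for the knock-in line to 292 and 493 with the replicate block, 1587 and 1536 without the libraries that stood apart, 232 and 404 by DESeq2 and 0 and 1 with ERCC scaling, and to 0 and 3, 0 and 2 or 0 and 3 without nontreated wild-type replicate 1, 2 or 3, and 608 and 640, 0 and 1 or 3 and 9 without NSD1-dTAG replicate 1, 2 or 3; in the EB degrader comparison 606 and 424 became 1046 and 788, 1652 and 1581, and 957 and 729 by the first 3 of these, and 210 and 91 or 114 and 68 without nontreated replicate 1 or 2 and 133 and 51 or 227 and 168 without dTAG-13 replicate 1 or 2. Plain library sizes moved the median of all genes to 0.16 in EBs against mESCs, where it was 0.02, and that of the members to -2.02. Scaling to ERCC counts, possible in mESCs only, moved it to -0.10 for the knock-in line, where it was 0.01, with the members at -0.12, and called 0 members in both mESC comparisons (0 at an unadjusted p below 0.05 in each, by edgeR). With only protein-coding genes counted the share was 1.60% in NSD1-dTAG, 1.58% in dTAG-13 wild-type and 1.60% in nontreated wild-type mESCs, and without the most counted nuclear genes 2.62%, 2.59% and 2.58%; in EBs these alternatives moved it by less than 1 SD.

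Depth limits the tRNAs and the genes at or near 0, and the spread between EB libraries limits the degrader comparison. Poly(A) selection, the unknown treatment of reads shared with nuclear copies and the missing spike-ins in EBs bear on levels but were not tested.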
